A study of Mus musculus with 2 samples.

Results

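The erythroid cells of this single-cell series of mouse optic nerve were taken as the cell barcodes in which red cell RNA predominated. A barcode, the sequence tag that marks 1 droplet, was a member if it held at least 500 unique molecular identifiers (UMIs, each standing for 1 captured RNA molecule), if at most 20% of its UMIs came from mitochondrially encoded genes, if the 4 adult globin genes Hbb-bs, Hbb-bt, Hba-a1 and Hba-a2 made up at least 30% of its UMIs, and if it held at least 1 UMI of Alas2. These measured values chose the members, so their globin and Alas2 levels are given as a description. The rule found 721 members, of 20590 barcodes that passed the first 2 conditions (the kept barcodes) and 20868 barcodes in all. Of these, 630 members lay among 16381 kept barcodes of the vancomycin library and 91 among 4209 kept barcodes of the control library.

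Both libraries came from Nf1-OPG mice (Nf1flox/neo; GFAP-Cre), which carry a neomycin cassette in exon 31 of 1 Nf1 allele and lose the other allele where Cre is driven by the GFAP promoter, in neuroglial progenitors. The vancomycin group received vancomycin, an antibiotic, from 6 to 12 weeks of age, and the other library is labelled Control, for which the series design gives PBS over the same weeks. Nerves of 10 mice aged 12 weeks were pooled for each library, so there was 1 library per group with no replicate. No test was made between groups, and the 95% intervals given cover counting error only. The protocol also describes meningeal dura, and the title of the control library alone carries the tag ON, whose meaning is not given. The libraries were made with the 10x Genomics 5′ version 2 chemistry and counted with different Cell Ranger versions (7.2.0 for vancomycin and 6.0.1 for control), so treatment, library and counting software cannot be told apart.

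Red cells form in the bone marrow and, in mice, also in the spleen. Erythroblasts build up haem and globin, expel the nucleus and leave as reticulocytes, which still hold RNA and clear their mitochondria and ribosomes before they become mature red cells. Adult haemoglobin pairs alpha chains, encoded by Hba-a1 and Hba-a2, with beta chains, encoded by Hbb-bs and Hbb-bt in the reference genome. Alas2 encodes the first enzyme of haem synthesis in erythroid cells, and Fech encodes the last one, which inserts iron. Blood collected with a tissue brings red cells into its cell suspension, and where the members of these libraries came from was not tested.

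The vancomycin library held 144451114 UMIs and the control library 25609899. Members made up 3.85% of kept vancomycin barcodes (exact binomial interval 3.56 to 4.15) and 2.16% of kept control barcodes (1.74 to 2.65). A member held a median of 4438 UMIs in the vancomycin library and 4256 in the control library, against medians of 6871 and 4854 in the other kept barcodes of the same libraries. Those UMIs fell on few genes, a median of 101 genes per vancomycin member and 64 per control member, against 2507 and 1909.5 in other barcodes. The shares of cells rest on which barcodes the deposited files kept, and a filter on at least 200 genes would leave 121 vancomycin and 3 control members. The libraries shared 100 barcode sequences (2.34% of the control barcodes), and 0 of them were members in both.

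Adult globin took 30.3% to 97.8% of a vancomycin member's UMIs (median 93.7%) and 35.2% to 98.2% of a control member's (median 95.6%). The barcodes nearest to the threshold stood at 30.3% inside and 29.5% outside in the vancomycin library, and at 35.2% inside and 26.3% outside in the control library. A vancomycin member held 1 to 56 Alas2 UMIs (median 15) and a control member 1 to 60 (median 9). For 76 vancomycin and 15 control members a single Alas2 UMI met the rule, while 113 vancomycin and 10 control barcodes met the globin condition with 0 Alas2 UMIs. Another 163 vancomycin and 10 control barcodes held Alas2 but under 30% globin.

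**Figure D1:**
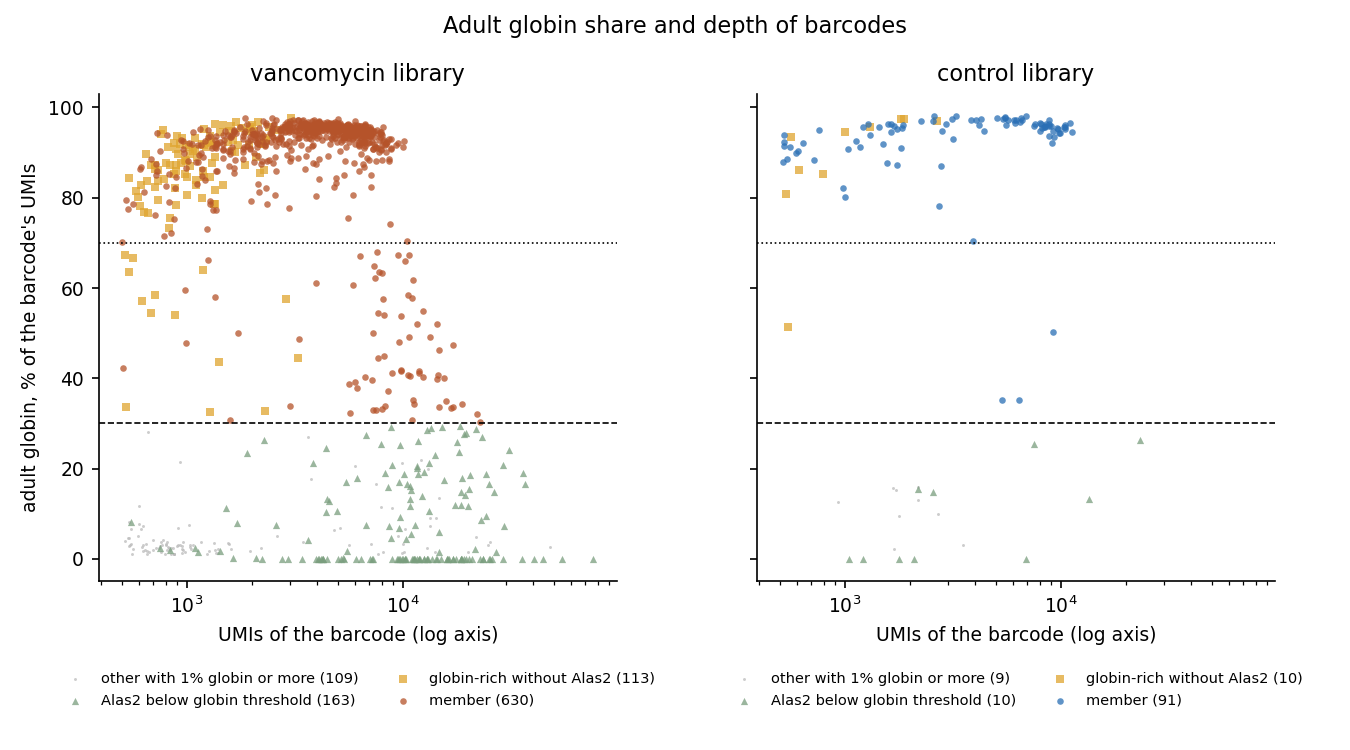
Each point is 1 barcode, with its UMIs on a log axis and the share of its UMIs from adult globins in percent, in the vancomycin library (left) and the control library (right). Barcodes that are no members are drawn where they hold Alas2 or at least 1% globin. The dashed line is the 30% condition and the dotted line 70%. Most members lie above 90% globin (463 of 630 vancomycin and 77 of 91 control members), and among members those of the vancomycin library under 70% reach the highest UMI counts.

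The label was checked on erythroid genes that the rule did not use. Fech was seen in 424 of 630 vancomycin members (67.3%, 63.5 to 71.0) and in 64 of 91 control members (70.3%, 59.8 to 79.5), against 20.1% and 12.0% of other barcodes, whose median depth was higher. Slc4a1, which encodes the band 3 anion exchanger, was seen in 5.08% of vancomycin and 13.2% of control members, against 1 of 15751 and 0 of 4118 other barcodes, and a count of 0 allows a share of barcodes with a UMI of up to 0.0729%. Klf1 and Gata1, master regulators of the lineage, were almost unseen in members, whose median depth outside adult globins was 242.5 UMIs in the vancomycin and 166 in the control library. Klf1 had a UMI in 1 of 630 vancomycin and 0 of 91 control members, Gata1 in 2 and 0. With 3 counts as the limit, 0 of 91 allows a share with a UMI of up to 3.30%, which at this depth is no limit on members that express the gene. Hemgn, a nuclear protein gene of erythroid cells, had 3 UMIs in vancomycin members and 2 in control members, and Ahsp was not analysed here. Fech was thus seen in most members and Slc4a1 in few of them, while Klf1, Gata1 and Hemgn were near 0.

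Members split into a large group made up almost wholly of globin and a small group in which globin was mixed with much other RNA. High-globin members, those with at least 70% globin, numbered 560 of 630 in the vancomycin library and 88 of 91 in the control library. The other 70 vancomycin members (11.1%) held 69.5% of all the members' UMIs outside adult globins, and the other 3 control members held 37.7%. Median gene numbers were 1878 in the 70 vancomycin members under 70% and 96 in the high-globin ones. The 70% line was added after the data were seen, and both groups are ranges of a score, not types. All vancomycin members counted by band of globin share were 45 at 30 to 50%, 25 at 50 to 70%, 97 at 70 to 90% and 463 at 90% and over, against 2, 1, 11 and 77 control members.

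Marker genes of other cell types moved with the globin share. At least 3 UMIs from 1 of the other marker lists lay in 66 of the 70 vancomycin members under 70% globin, with oligodendrocyte markers in 39, plasma cell markers in 31, T cell markers in 28, microglial markers in 13, red pulp type macrophage markers in 11 and dendritic cell markers in 10. All 3 control members under 70% held T cell markers, and 1 of them also haematopoietic progenitor markers. The summed level of the oligodendrocyte list was 9838 CPM (UMIs per 1000000 UMIs outside the 4 adult globins) in the 70 vancomycin members and 17422 in the high-globin ones, that of the plasma cell list 7691 and 4193, and that of the T cell list 1701 and 280.4. Among the 560 high-globin vancomycin members, 232 held oligodendrocyte and 82 plasma cell markers, no other list was reached in more than 5, and all 8 neutrophil, 7 dendritic, 5 eosinophil and 5 natural killer markers were at 0. In the 88 high-globin control members, 1 held plasma cell markers and none any other list. The neutrophil genes S100a8 (743 UMIs), S100a9 (796), Ngp (306) and Camp (203) came from 1 vancomycin member alone, and 72.7% of the members' Jchain UMIs, an antibody joining chain, from another. Whether such barcodes hold 2 cells was not tested. The part of this RNA in the gene levels below was not tested, and levels are given for high-globin members unless all members are named.

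Globins were the rule's own genes, but their balance was not. The adult globin genes lie at 2 loci of the mm10 (GRCm38) genome, by GENCODE M21 positions. Hbb-bs (chr7:103826534-103828096, minus strand) and Hbb-bt (chr7:103812524-103813996, minus strand) stand on chromosome 7, and Hba-a1 (chr11:32283511-32284465, plus strand) and Hba-a2 (chr11:32296489-32297298, plus strand) on chromosome 11, while Alas2 (chrX:150547375-150570638, plus strand) is on the X chromosome. The coding sequences of Hba-a1 and Hba-a2 matched at 425 of 426 aligned bases and those of Hbb-bs and Hbb-bt at 440 of 441, whereas Hba-a1 and Hbb-bs were 57.5% identical. Reads of the 2 alpha genes, or of the 2 beta genes, can thus be split between near-identical copies, and counts of a single copy are uncertain. Full transcripts were 75.1% identical between the alpha genes and 82.4% between the beta genes over the aligned length.

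The 120 bases before the RefSeq start of each of these 5 genes (GRCm38.p6) are shown because the 4 globins and Alas2 define the members and because the balance of alpha and beta genes differed between libraries. The Hbb-bs and Hba-a1 windows lie wholly within the GENCODE M21 gene models, whose starts are further upstream, and the Hbb-bt, Hba-a2 and Alas2 windows overlap theirs in part. Capitals mark CACCC and CCAAT on either strand (on the minus strand these read GGGTG for the first and ATTGG for the second). They also mark TATAA on the plus strand and the GATA words on either strand, which begin with A or T, go on with the letters GATA and end with A or G. TTATCT is such a word on the minus strand.
Hbb-bs (chr7:103827929-103828048, minus strand): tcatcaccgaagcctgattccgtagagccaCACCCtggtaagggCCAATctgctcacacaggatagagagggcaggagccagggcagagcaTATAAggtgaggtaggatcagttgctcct
Hbb-bt (chr7:103813924-103814043, minus strand): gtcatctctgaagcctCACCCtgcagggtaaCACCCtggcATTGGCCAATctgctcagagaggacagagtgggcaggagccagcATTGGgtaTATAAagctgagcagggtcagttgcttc
Hba-a1 (chr11:32283552-32283671, plus strand): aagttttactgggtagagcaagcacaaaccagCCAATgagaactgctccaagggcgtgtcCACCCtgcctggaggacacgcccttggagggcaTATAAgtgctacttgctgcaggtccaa
Hba-a2 (chr11:32296372-32296491, plus strand): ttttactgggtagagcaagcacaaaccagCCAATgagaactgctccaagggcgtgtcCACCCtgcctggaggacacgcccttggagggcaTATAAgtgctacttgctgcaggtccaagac
Alas2 (chrX:150547297-150547416, plus strand): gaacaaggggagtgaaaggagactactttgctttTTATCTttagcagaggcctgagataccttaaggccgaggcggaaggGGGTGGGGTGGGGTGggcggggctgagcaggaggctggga

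All 4 globin windows held the CACCC word together with CCAAT and with TATAA, and the Alas2 window held a GATA word and 3 CACCC matches on the minus strand. In the same 120-base window, 13% of 27025 mouse promoters held a GATA word, 31.3% CACCC, 22.1% CCAAT and 9.10% TATAA. In Hbb-bt, a CCAAT match on the minus strand directly adjoins one on the plus strand. The words were chosen after these sequences were seen, and a match describes letters only. The Hba-a1 and Hba-a2 windows aligned over 117 bases with 0 mismatches and 6 gap positions, and the Hbb-bs and Hbb-bt windows shared 91 identical positions (74.6%).

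Alpha globin UMIs were few in vancomycin members and many in control members, and the part of reads that match both copies was not tested. Summed over members, Hbb-bs had 2093113 UMIs, Hbb-bt 355105, Hba-a1 21055 and Hba-a2 14515 in the vancomycin library. The control members had 273015, 38106, 57419 and 42426 UMIs of the same genes. Alpha genes thus made up 1.43% of adult globin UMIs in vancomycin members and 24.3% in control members. The alpha to beta ratio of UMIs was 0.0145 (0.0144 to 0.0147) in vancomycin members and 0.321 (0.319 to 0.323) in control members.

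This held from barcode to barcode. A vancomycin member's ratio ran from 0.00148 to 0.354 with a median of 0.0141, and its 95th percentile was 0.0212. A control member's ran from 0.0812 to 0.830 with a median of 0.315. The ranges overlapped through 1 vancomycin member, and all others lay below the lowest control member. Every member of both libraries held at least 1 alpha UMI. The difference was not confined to members. Globin-rich barcodes without Alas2 had ratios of 0.0173 in the vancomycin library and 0.329 in the control library, and the few globin UMIs of all remaining barcodes without Alas2 gave 0.0179 and 0.293. The same gap was thus present in the globin UMIs of the whole libraries. Within the alpha genes the split was alike, with Hba-a2 at 40.8% of alpha UMIs in vancomycin and 42.5% in control members.

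Hbb-bt, the minor adult beta gene in these data, made up 14.5% of beta globin UMIs in vancomycin members (14.5 to 14.5) and 12.2% in control members (12.1 to 12.4). Single members ranged from 0.299% to 28.2% (median 11.3%) in the vancomycin library and from 0.308% to 22.9% (median 10.7%) in the control library. The spread between members of 1 library was thus far wider than the gap between libraries. Globin-rich barcodes without Alas2 had lower shares, 4.36% and 6.54%. The embryonic genes Hbb-y, Hbb-bh1 and Hba-x had 0 UMIs in members of both libraries, and Hbb-bh2 had 1 UMI in vancomycin members and 0 in control members. The theta-like alpha-cluster genes Hbq1a and Hbq1b, which may share reads, stood at 417 and 804 CPM in high-globin vancomycin members, at 695 and 496 in high-globin control members, and at 0.114 and 0.121 in other vancomycin barcodes.

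**Figure D2:**
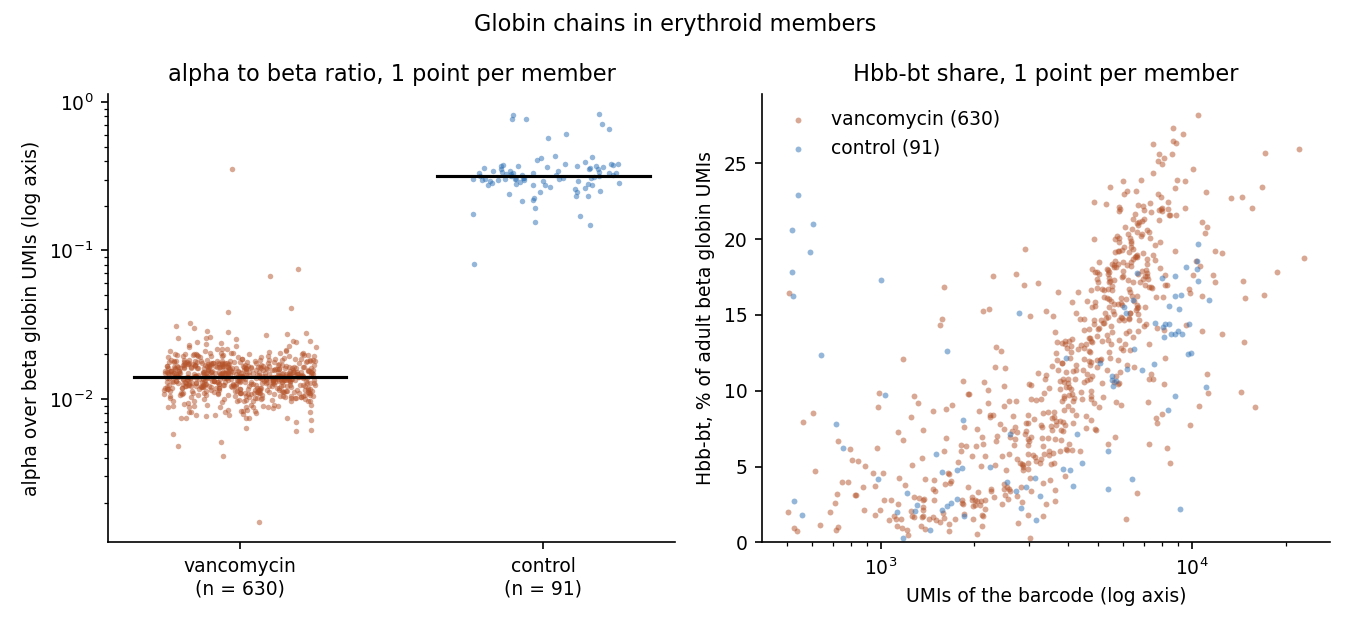
Left, the ratio of alpha to beta globin UMIs on a log axis, 1 point per member, with a black line at the median of 0.0141 for the 630 vancomycin and 0.315 for the 91 control members. Right, the share of Hbb-bt in adult beta globin UMIs in percent against the member's UMIs on a log axis, coloured by library, which is higher in deeper members, apart from a few control members near 500 UMIs.

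To describe the other RNA, levels were computed as the same CPM, and a gene was counted as higher or lower at a 2-fold difference after 10 was added to both levels. High-globin vancomycin members were set against all other kept barcodes of the library, over 556 genes with enough UMIs. Of these, 24.6% were higher by 2-fold or more and 60.6% lower by as much, with a median log2 ratio of -1.33. Over all 630 members, 1836 genes were measured, with 9.1% higher and 15.6% lower. In all 91 control members 144 genes were measured, with 29.9% higher and 20.8% lower. Members were picked on globin and Alas2, and genes that go with these could only be high, so the counts describe the members and are no test. A gene had enough UMIs by its count in members or by the count expected from other barcodes. A gene rare enough in other barcodes was thus measured only if it was high in members, and for it the call of higher could not fail.

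The counts depend on the denominator, since globin filled most of each member. Counted again as CPM of all UMIs, globins included, a setting applied to these genes after the data were seen, 6.83% of the same 556 genes were higher in high-globin vancomycin members and 82.7% lower. The median log2 ratio was then -4.49. On that scale 6 of 6 measured genes of the other erythroid list were still higher, and so was Fech, at 486 against 31.9 in other barcodes. Of 8 clearance genes 4 were higher and 1 lower, of 7 iron genes 2 and 3 (median log2 ratio -0.56), of 12 enzyme and antioxidant genes 2 and 4 (-0.55) and of 4 membrane genes 2 and 1 (1.07). The log2 ratio was below 0 for Fth1 (-2.77), Ftl1 (-0.56), Bsg (-3.12), Ubb (-1.55), Map1lc3b (-0.22), Lmo2 (-0.16), Prdx2 (-0.35), Cat (-0.20), Isg15 (-2.20), Gm42418 (-0.09), Cmss1 (-1.39) and Mbp (-1.61), which were above 0 outside adult globins. The levels that follow are CPM outside adult globins.

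Of 14 genes of haem synthesis 2 could be measured, Alas2, which the rule required, and Fech, which was higher. Alas2 stood at 56621 CPM in high-globin vancomycin members against 5.22 in other barcodes. Fech stood at 7103 against 32.0. A vancomycin member held 0 to 18 Fech UMIs (median 1). Enzymes between the first and the last step gave few UMIs, 7 for Alad, 2 for Uros, 23 for Urod, 8 for Cpox and 0 for Ppox over the 560 members.

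Of 7 measured genes of iron uptake and storage, 5 were higher and 1 was lower, with a median log2 ratio of 3.20. Slc25a37, the mitochondrial iron importer mitoferrin 1, stood at 2524 CPM in high-globin vancomycin members and 3.41 in other barcodes. Ncoa4, the receptor that delivers ferritin for breakdown, stood at 2013 against 54.8, and Glrx5, of iron-sulphur cluster assembly, at 1832 against 60.3. The ferritin heavy chain gene Fth1 was at 24500.3 against 11507, and the light chain gene Ftl1 at 1726 against 179. Tfrc, the transferrin receptor through which erythroblasts take up iron, had only 3 UMIs in the 560 members.

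Genes of the red cell membrane and its skeleton were unevenly seen, with 4 of 24 measured and 3 of these higher (median log2 ratio 4.72). Epb41, which encodes skeletal protein 4.1, stood at 2455 CPM against 41.6 in other barcodes. Mpp1, which encodes the scaffold protein p55, stood at 474 against 23.4. Bsg was at 455 against 349, under 2-fold. Below the minimum of 50 UMIs lay Slc4a1 with 49 UMIs in the 560 members, Sptb (beta spectrin) with 10 and Ank1 (ankyrin) with 1. Both measured transcription factor genes were higher, E2f2 at 611 against 6.77 and Lmo2 at 343 against 27.5.

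Every measured gene of organelle clearance and enucleation, 8 of 8, was higher outside adult globins, with a median log2 ratio of 4.82. Mkrn1, Ube2l6, Ube2o and Rnf10 were rare in other barcodes and were measured only because they were high in members. For these genes the call could not come out otherwise, so the count of the list is no test. Mkrn1, a ubiquitin ligase, stood at 18830.1 CPM in high-globin vancomycin members and 119.7 in other barcodes. The ubiquitin-conjugating enzyme gene Ube2l6 was at 9097 against 29.8. Ube2o, which in reticulocytes marks ribosomes and other proteins for breakdown, was at 991 against 17.6. Bnip3l (also Nix), the receptor by which reticulocytes clear mitochondria, was at 7826 against 282. The autophagy genes Gabarapl2 and Map1lc3b stood at 4929 and 2592 in members against 306 and 209. Rnf10 stood at 2368 against 70.2, and Ubb, a ubiquitin gene with repeats that can share reads, at 11203 against 2275. Mkrn1 was seen in 388 of the 560 members, with 0 to 38 UMIs each.

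Of 12 measured red cell enzymes and antioxidants, 8 were higher and 2 lower (median log2 ratio 3.05). Bpgm, which makes the 2,3-bisphosphoglycerate that loosens oxygen from haemoglobin, was at 15066 CPM against 125. The peroxide-removing genes Gpx1, Prdx2 and Cat stood at 12786, 2256 and 735 against 418, 200.3 and 59.5. Prdx2 was nevertheless seen in 25.4% of high-globin vancomycin members and 61.2% of the deeper other barcodes, and Cat in 12.0% and 32.1%. Car2, a carbonic anhydrase that oligodendrocytes express as well, was at 991 against 1211, and Txn1 at 68.5 against 319. Of the remaining erythroid list, 6 genes were measured and 6 of 6 were higher (median log2 ratio 6.07). Those named below were rare in other barcodes and measured only because they were high in members, so this count is no test. Slc25a39, a mitochondrial carrier, stood at 9428 against 86.6. Tent5c, Isg20, Cd24a and Tspo2 were at 6948, 5521, 4225 and 355 against 109, 62.1, 72.8 and 0.135.

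Outside the lists, the genes with the highest ratios were named by a fixed rule. Isca1, of iron-sulphur cluster assembly, stood at 8941 CPM in high-globin vancomycin members against 45.8 in other barcodes. Gda, the guanine deaminase gene, was at 1751 against 6.26, and Apol11b at 903 against 0.135. March2, a membrane ubiquitin ligase gene, was at 5969 against 72.6, and Ucp2, an uncoupling protein gene of the mitochondrial membrane, at 16057 against 454. Cdr2, Rec114, Phospho1 and Dcaf12 stood at 1159, 498, 642 and 1608 against 12.2, 1.38, 4.0 and 36.5. The non-coding gene Gm42418, named for its abundance and not by the ranking of ratios, stood at 131306 against 9581. It overlaps AY036118, on the other strand of chromosome 17. Each high-globin vancomycin member held 2 to 449 Gm42418 UMIs.

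In the control library all 91 members were set against other control barcodes. Beside Alas2 of the rule, Fech, 6 of 6 clearance genes, 5 of 5 other erythroid genes, 3 of 3 red cell enzyme genes and 3 of 4 iron genes were higher outside adult globins. These counts are no test either, since genes rare in other control barcodes were measured only if they were high in members. The median log2 ratio was 5.0 for the clearance genes and -0.46 over all measured genes. In high-globin control members Fech stood at 13603 CPM against 23.1 in other control barcodes, Mkrn1 at 28349 against 100.05 and Bpgm at 14398 against 13.8.

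**Figure D3:**
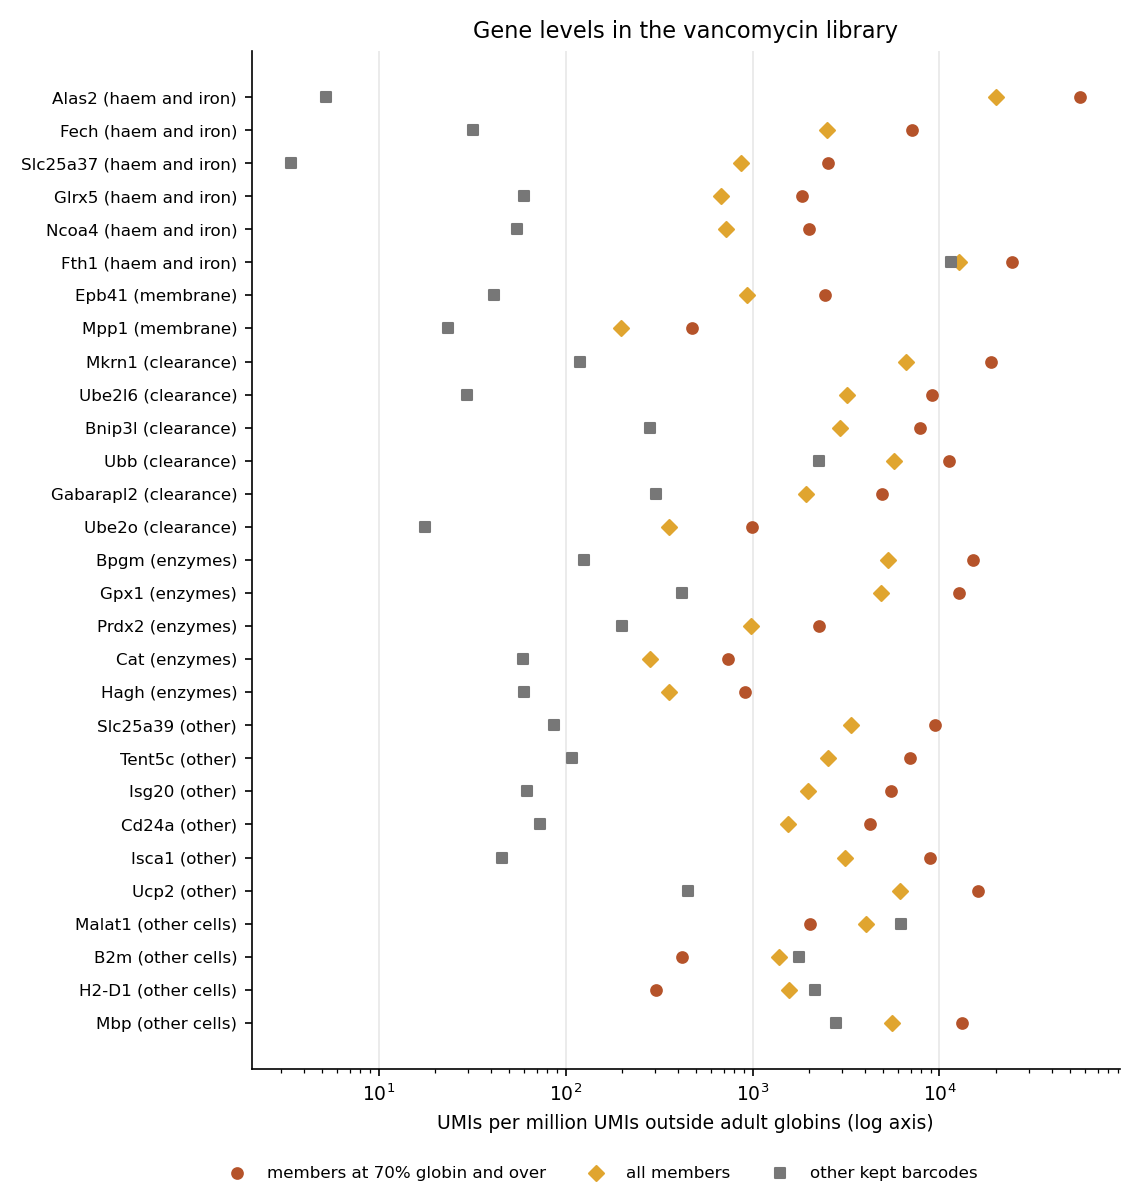
Levels of named genes in the vancomycin library, as CPM outside adult globins on a log axis, in high-globin members (circles), all members (diamonds) and other kept barcodes (squares). Alas2 and the genes from Fech to Ucp2 lie highest in high-globin members, while Malat1, B2m and H2-D1 lie lowest there and the myelin gene Mbp does not.

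MHC class I RNA was low in high-globin members but not over all members, and Malat1 lay near the middle of all genes in the vancomycin library. Malat1, a non-coding RNA kept in the nucleus, stood at 2031 CPM in high-globin vancomycin members against 6189 in other barcodes, and at 993 against 9074 in the control library. Its vancomycin log2 ratio of -1.60 compares with a median of -1.33 over all measured genes, and over all 630 members neither of the 2 measured nuclear RNAs was 2-fold lower. All 4 measured MHC class I genes were lower (median log2 ratio -2.42), beside 60.6% of all measured genes, with B2m at 417 against 1767 and H2-D1 at 305 against 2166. Over all 630 members 0 of 8 MHC class I genes were 2-fold lower (median log2 ratio -0.41). Outside the lists, the genes with the lowest ratios included the class II gene H2-Aa at 249 against 2951 and the antibody gene Ighg2b at 68.5 against 851. Of 78 measured ribosomal protein genes, 55 were lower and 1 higher, with a median log2 ratio of -1.29 beside -1.33 over all measured genes. Their summed level was 55911 CPM in high-globin members and 113766 in other barcodes. Over all 630 members 0 of 79 were 2-fold lower or higher, and their summed level was 117483 CPM.

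Mitochondrial RNA depended on the denominator. It made up a median of 0.0575% of all UMIs of a vancomycin member and 0% of a control member, against 1.57% and 1.55% in other barcodes. Outside adult globins, however, its summed level was 30389 CPM in high-globin vancomycin members and 15933 in other barcodes, and 1 of 11 genes was at least 2-fold higher. Interferon genes were split. Rsad2, which encodes the antiviral protein viperin, stood at 2330.4 against 17.3 and Isg15 at 573 against 216. Of the 5 measured genes 3 were lower, near the 60.6% of all measured genes. Over all members 0 of 8 were lower, beside 15.6% of all measured genes.

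In high-globin members most proliferation RNA came from Ube2c. At least 2 UMIs of the 22-gene proliferation list lay in 27 of 560 high-globin vancomycin members (4.82%) and 6 of 88 control ones (6.82%), and without Ube2c in 2 and 0. Ube2c, a ubiquitin-conjugating enzyme gene of the mitotic exit, was at 723 CPM in high-globin vancomycin members against 21.7 in other barcodes. Over all members 71 of 630 vancomycin members held 2 UMIs of the list, and 44 (6.98%) still did without Ube2c, against 8 and 2 of 91 control members. With Ube2c the share over all members was 11.3% in the vancomycin and 8.79% in the control library, against 65.9% and 64.0% of the deeper other barcodes. With each barcode thinned to 100 UMIs outside adult globins, which left out 49 vancomycin and 29 control members, the shares were 0.516% (0.107 to 1.5) and 4.84% (1.01 to 13.5), from 3 barcodes each, against 0.573% and 0.632%. Early progenitor genes Kit and Cd34 were at 0 in the high-globin members of both libraries.

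RNA outside adult globins differed with the globin share of vancomycin members. In the vancomycin library the 463 members with at least 90% globin were set against the 97 with 70 to 90%, over 296 genes, of which 30.1% were higher and 25% lower. Higher in the richer band were 8 of 8 clearance genes, 6 of 6 other erythroid genes and Fech, beside Alas2 of the rule, with Apol11b at 1164 against 187 CPM, Ube2l6 at 11417 against 2712, and Riok3, a kinase gene of red cell maturation, at 1733 against 351. These counts rest on leaving globin out of the denominator. As CPM of all UMIs, 0% of the genes were higher and 51% lower, and 0 of 8 clearance (median log2 ratio 0.17), 0 of 6 other erythroid (0.06) and 0 of 2 haem genes differed by 2-fold. Without members that held markers of other cells, 51 genes were higher and 15 lower, against 89 and 74 of 296 genes with them. Leaving members out can only lower the number of measured genes, which was not recorded, so these counts cannot be compared as shares. Lower in the richer band, outside adult globins, were 11 of 11 mitochondrially encoded and 23 of 62 ribosomal protein genes. The lowest ratios belonged to genes that other cells express, such as the chemokine Ccl5 at 84.9 against 1917, the class II gene H2-Eb1 at 161 against 725 and Apoe at 297 against 1519.8. The part of such RNA in these differences was not tested.

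Among high-globin members the Hbb-bt share went with depth. Its Spearman correlation with a member's total UMIs was 0.86 over 560 vancomycin members and 0.43 over 88 control members, which describes barcodes of 1 library each. Total UMIs are mostly Hbb-bs and Hbb-bt themselves. Members were grouped at Hbb-bt shares under 5%, 5 to 15%, and 15% and over, with 110, 266 and 184 vancomycin members and 28, 36 and 24 control members, and median depths of 1628, 3788 and 6354 UMIs in the vancomycin library and 1752, 6358 and 7334 in the control library. These groups, chosen after the data were seen, are also ranges and not types.

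Several erythroid genes were higher where the Hbb-bt share was higher, also in CPM outside adult globins. From the lowest share to the highest, Bpgm stood at 1387, 7914 and 23281 CPM in vancomycin members and 896, 14299 and 20796 in control members. Mkrn1 stood at 2292, 13721 and 26070.5 in vancomycin and 7467, 26824 and 40066 in control members. Gpx1 stood at 302, 4617 and 21532 and, in control members, 597, 11272 and 14834. Both enzyme genes were thus lowest in the low-share group of each library.

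The haem genes Alas2 and Fech spanned a smaller range than Bpgm, Mkrn1 and Gpx1. Alas2 stood at 26538, 57023 and 62417 CPM in vancomycin members in the same order, and at 34648, 74001 and 67378 in control members. The rule required Alas2, and the lowest vancomycin group held medians of 2 Alas2 UMIs and 127 UMIs outside adult globins. The rule thus held up the low end of Alas2, by an amount that was not tested. Fech, which the rule did not use, stood at 3558.5, 5678 and 8906 CPM in vancomycin members and at 8363, 15134 and 14002.5 in control members. Ube2l6 stood at 4403, 8381 and 10595 and, in control members, 10454, 13255 and 14141. The membrane gene Slc4a1 had 0 UMIs in the lowest group of both libraries, and stood at 526 CPM in the highest vancomycin group and 2079.6 in the highest control group. Ube2c stood at 60.3 (1 UMI), 354 and 1138 in vancomycin and at 0, 1044 and 4298 in control members. The 0 in the lowest control group has an upper bound of 1102 CPM, so its order against the middle control group is not settled. In high-globin control members 43.9% of the Ube2c UMIs came from 1 barcode.

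The summed ribosomal protein genes ran the other way, at 74487, 59001 and 49792 CPM in vancomycin members and 73477, 41332 and 32719 in control members. Fth1 stood at 27563, 27635 and 21495 in vancomycin members and at 3286, 8872 and 10675 in control members, lowest in the high-share group of the vancomycin library and in the low-share group of the control library. RNA of other cells moved with the groups as well, since Malat1 stood at 4282, 2589.8 and 1150.0 and the myelin gene Mbp at 20386, 16874 and 9089.8 in vancomycin members. Its part in the result was not tested, and Mbp was at 0 in all 3 control groups.

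**Figure D4:**
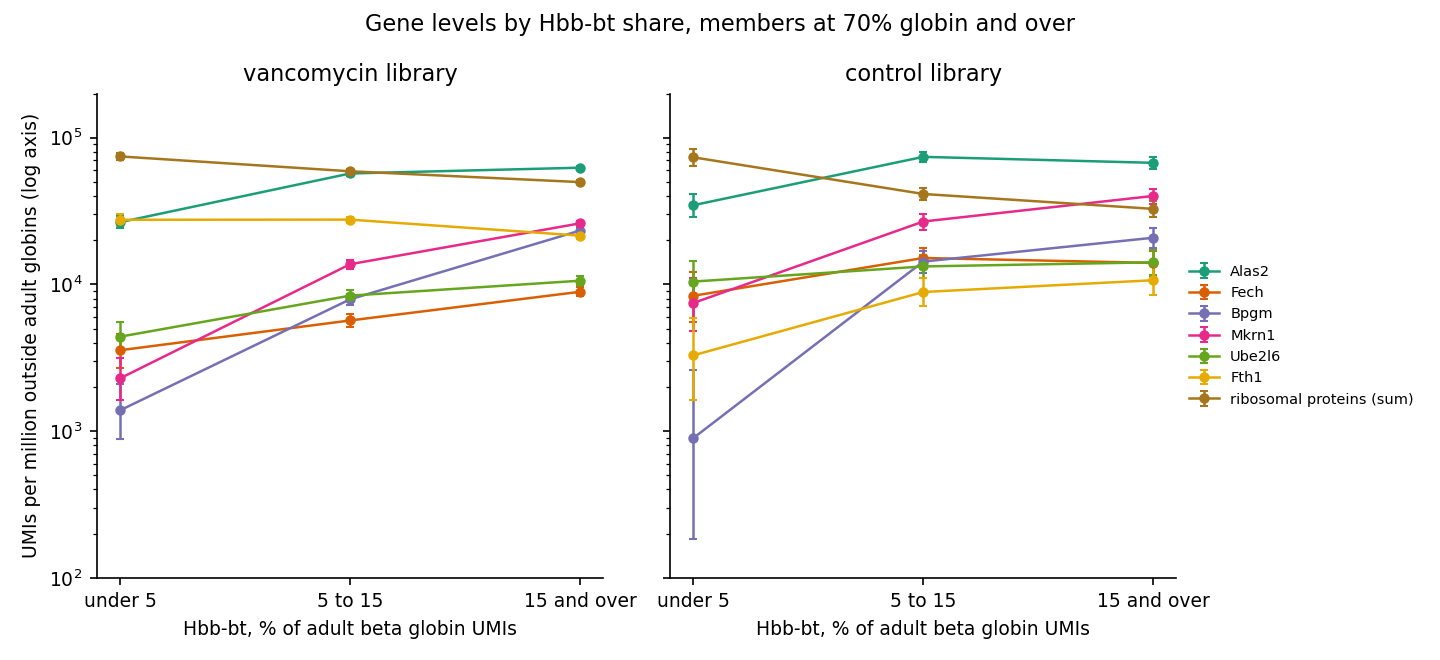
Levels of 6 genes and of all ribosomal protein genes summed, in CPM outside adult globins on a log axis, by the share of Hbb-bt in beta globin UMIs of high-globin members, in the vancomycin library (left) and the control library (right). Bars are 95% Poisson intervals for counting error. Bpgm and Mkrn1 are lowest and the ribosomal sum is highest in the group under 5% in both libraries.

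Vancomycin and control members were then compared in their RNA outside adult globins. High-globin members allowed 305 genes to be compared, of which 29.8% were higher in the vancomycin library by 2-fold or more and 8.52% lower by as much, with a median log2 ratio of 0.17. Over all members the same figures were 39.9% and 10.4% of 1368 genes, with a median of 0.59. The control members held only 20142 UMIs outside adult globins in the high-globin group, against 160488 in vancomycin, which limits the precision. Adult globin made up 93.2% of all UMIs of high-globin vancomycin members and 95.2% of those of control ones. The ratios of vancomycin over control below thus depend on leaving globin out. As a share of all UMIs each ratio of high-globin members would be higher, and that setting was not run for them.

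Most measured genes of the erythroid lists lay within 2-fold between the libraries, the iron list excepted. Past that line were 0 of 2 measured haem genes, 1 of 8 clearance genes (Rnf10, lower), 1 of 7 other erythroid genes (Acp1, lower), 3 of 10 enzyme genes (Car2 and Gpx4 higher, Prdx2 lower), 4 of 6 iron genes (1 higher, 3 lower) and 2 of 5 membrane genes (both lower). Over all members, whose RNA is mixed more in the vancomycin library, 3 of 4 haem, 6 of 10 clearance, 5 of 8 other erythroid, 3 of 8 iron, 3 of 6 membrane and 4 of 15 enzyme genes were at least 2-fold lower. Fech stood at 7103 CPM in vancomycin and 13603 in control members, a ratio of 0.522-fold (0.457 to 0.598). Alas2 stood at 56621 and 65088, a ratio of 0.870-fold (0.821 to 0.922). Over all members the Alas2 ratio was 0.483-fold (0.456 to 0.512), and it was above 1 as CPM of all UMIs and without members that held other cells' markers. Bpgm was at 15066 and 14398, a ratio of 1.05-fold (0.926 to 1.19), whose interval includes 1. Mkrn1, at 18830.1 and 28349, had a ratio of 0.664-fold (0.607 to 0.728).

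Among the iron and membrane genes, Slc25a37 and Epb41 were lower in vancomycin members. Slc25a37 stood at 2524 CPM in high-globin vancomycin members and 8887 in control ones, 0.284-fold (0.238 to 0.341), and in other barcodes at 3.41 and 13.9. Epb41 stood at 2455 and 7397, 0.332-fold (0.274 to 0.403), and in other barcodes at 41.6 and 83.8. Slc4a1 stood at 305 and 1142, 0.267-fold (0.160 to 0.460). The antioxidant gene Prdx2 was at 2256 and 4965, 0.454-fold (0.363 to 0.573). Over all members the ratios were 0.294 for Fech, 0.156 for Slc25a37, 0.200 for Epb41 and 0.144 for Slc4a1. With a minimum of 200 genes, which leaves 3 control members, these 4 ratios and those of Alas2, Mkrn1, Ube2l6 and Lars2 were above 1.

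The ferritin genes went opposite ways. Ftl1 stood at 1726 CPM in vancomycin and 32767 in control members, 0.0527-fold (0.0456 to 0.0607), and it has processed copies in the genome that can share its reads. Fth1 stood at 24500.3 and 8589, 2.85-fold (2.45 to 3.34). The other barcodes of the libraries differed in the same directions, with Ftl1 at 179 and 2299.9 and Fth1 at 11507 and 4223. Ftl1 was seen in 35.9% of high-globin vancomycin members and 92.0% of control members.

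The widest differences lay outside the erythroid lists. Cmss1 stood at 45816 CPM in high-globin vancomycin members and had 0 UMIs in the 88 control members, which is at least 308-fold higher with 3 counts as the floor. In other barcodes it stood at 8240.4 and 11.0. Camk1d, a calcium-dependent kinase gene, stood at 35965 CPM in vancomycin members and had 1 UMI in control members, a ratio of 724-fold (130.0 to 28618), and in other barcodes at 357 and 71.6. It was seen in 533 of 560 vancomycin members (95.2%) with up to 158 UMIs, in 74.0% of other vancomycin barcodes, and in 1 of 88 control members. Unlike Cmss1, it was far higher in vancomycin members than in other barcodes of the same library, at 101 times their level against 5.56 times for Cmss1.

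Further genes with 0 UMIs in high-globin control members were Mbp (at least 89.1-fold higher in vancomycin members), the glutamate receptor gene Grik3 (at least 38.1-fold), Gphn (at least 19.7-fold), Zc3h7a (at least 14.1-fold) and Cdk8 (at least 10.2-fold). In other barcodes, Grik3 stood at 366 and 5.34 CPM and Mbp at 2789.8 and 79.2. Gphn, Zc3h7a and Cdk8 stood at 545, 289 and 572 in other vancomycin barcodes and at 34.0, 68.5 and 34.4 in other control barcodes. At the low end, Lars2 stood at 3795 and 14001 in high-globin members and at 669.5 and 2138 in other barcodes. Of 62 ribosomal protein genes, 18 were at least 2-fold higher in vancomycin members, near the 29.8% of all 305 measured genes. Their median log2 ratio was 0.46, beside 0.17 over all measured genes. Of 11 mitochondrially encoded genes, 5 were at least 2-fold higher.

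**Figure D5:**
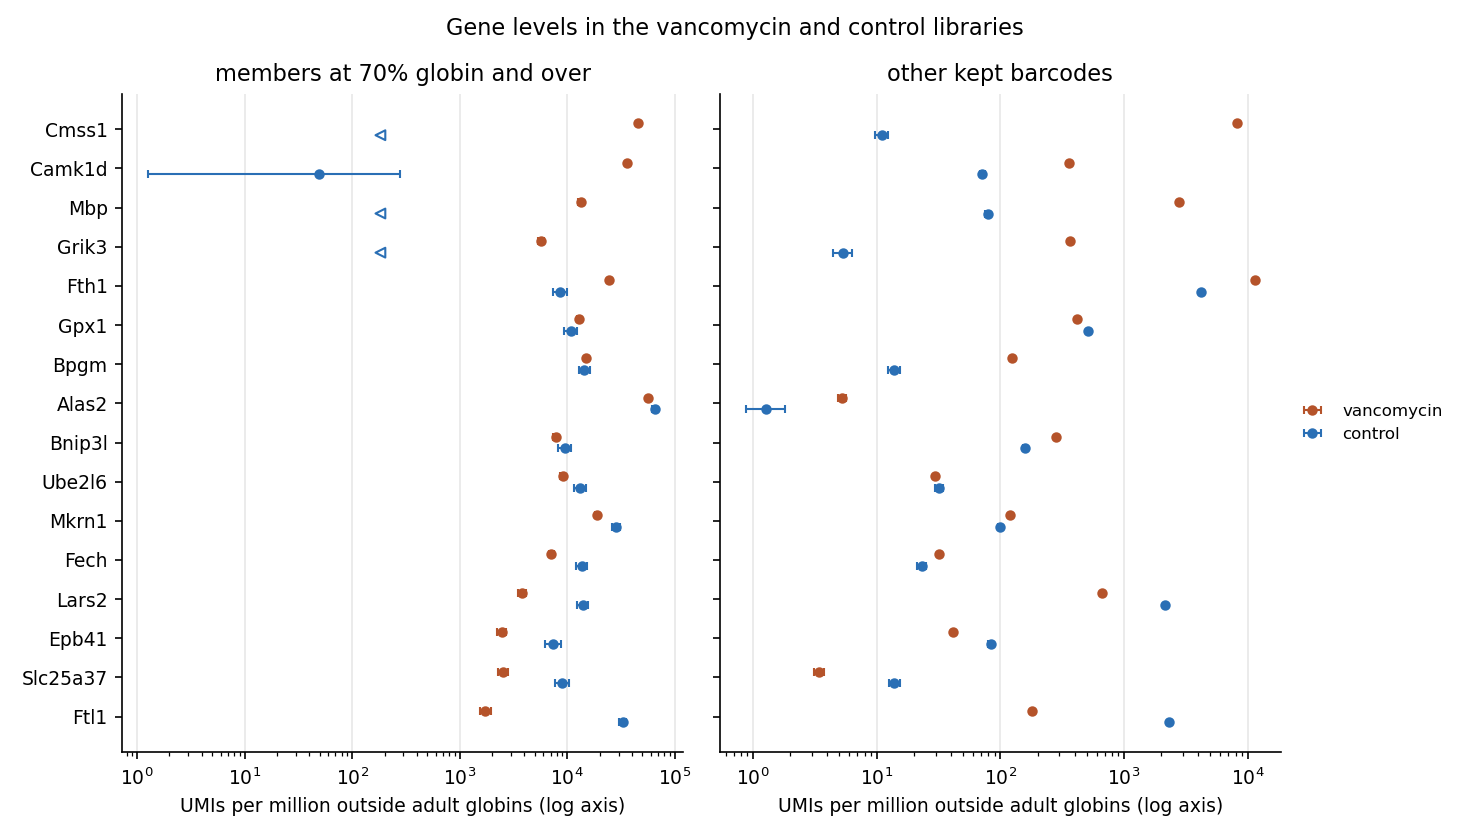
Levels of named genes in the vancomycin (brown) and control (blue) libraries, in CPM outside adult globins on a log axis, in high-globin members (left) and other kept barcodes (right). Bars are 95% Poisson intervals for counting error, and open triangles mark the upper bound where a gene had 0 UMIs. Cmss1, Camk1d, Grik3, Mbp, Fth1, Lars2, Epb41, Slc25a37 and Ftl1 differ in the same direction on both sides, and Fech and Mkrn1 in opposite directions.

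Globin RNA was also found at low level outside the members. Of 15475 vancomycin barcodes with under 30% globin and 0 Alas2 UMIs, 20.4% had at least 1 adult globin UMI (median depth 6890 UMIs), as had 19.8% of 4098 control barcodes (median depth 4866). With every barcode thinned to 500 UMIs, the shares were 4.41% and 4.66%. Globin made up 0.0248% and 0.0113% of their UMIs. Members, at 30% or more by the rule, held 88.0% of the adult globin UMIs of kept vancomycin barcodes and 94.4% of those of kept control barcodes.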

How the data were processed

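Raw UMI counts per gene and barcode, deposited by the authors, were used for 1 vancomycin and 1 control library. Per the file headers, Cell Ranger 7.2.0 made the vancomycin counts and 6.0.1 the control counts. The build mm10 and Partek are named in the submitters' processing notes. Intron counting and the calling of cells are not given in the sources used here, and the smallest barcode held 500 UMIs in both files.

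Members were found by the stated rule. Members, gene lists and marker lists were chosen with earlier results of these data known. Levels (CPM) are UMIs summed over barcodes, per 1000000 UMIs outside the 4 adult globins. Ratios carry exact conditional Poisson intervals and shares exact Clopper-Pearson intervals, at 95%, for counting error only. A gene counted at 50 UMIs or more, observed or expected. A 2-fold call used log2 levels with 10 added. Where a group had 0 counts, 3 counts over that group served as its floor. Genes named were the rule's genes and markers, the 4 with the highest levels and the 2 with the highest and lowest ratios of each list, and, outside the lists, the 12 highest and 8 lowest ratios against other barcodes, the 8 each way between libraries and the 6 each way between globin bands. The rankings were then repeated in members with at least 70% globin, added after the data were seen, and the text follows those, with some of these genes left to counts. Rankings over all genes left out antibody and T cell receptor variable genes, Gm and Rik symbols, and mitochondrially encoded and ribosomal protein genes. The most abundant genes of high-globin vancomycin members were named as well, also added after the data were seen.

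Scrublet in scanpy 1.11.5 marked 1 of 16596 vancomycin and 0 of 4272 control barcodes. That call has not worked, so no doublet was removed. Python 3.11.15, numpy 2.4.6, scipy 1.17.1, pandas 2.3.3, matplotlib 3.10.9, anndata 0.12.19 and biopython 1.88 were used, and the scripts were tested on simulated counts. Positions came from GENCODE M21 (32235 of 32285 gene identifiers found) and promoter sequences from RefSeq on GRCm38.p6. All 5 genes shown had a promoter entry.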

Additional observations from a re-analysis of the deposited data

How the results depend on the processing

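With 1 library per group, these settings show how counting choices act and nothing about replicates. Depth limits the control members most, with 32312 UMIs outside adult globins against 526129 in vancomycin members. The alpha to beta ratio lay between 0.0141 and 0.0153 in vancomycin members and between 0.241 and 0.323 in control members under every setting run. Of 240 values of 16 named genes between the libraries, 21 had the opposite sign, and of 570 values of 38 named genes against other barcodes, 17 had. Leaving out barcodes marked as doublets was not run, since Scrublet marked 1 barcode. No paired analysis was possible because each group has 1 library. 

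Over all members at the settings of the text, 167 genes were at least 2-fold higher and 287 lower against other barcodes in the vancomycin library, 546 higher and 142 lower against control members, and 89 higher and 74 lower in the 90% band against the 70 to 90% band. Values that moved past their interval or by over 1.5 times, or turned sign, follow, and the cause was not tested. Settings that change the members, the minimum of UMIs or the denominator can also change which genes were measured. The gene counts are thus not of 1 fixed set. At 70% globin, 29.8% of 305 genes were higher and 8.52% lower against control members, beside 39.9% and 10.4% of 1368 over all members. With 20% globin in place of 30%, the globin share of member UMIs was 76.5% (vancomycin) and 88.4% (control). Globin in barcodes outside the members was 0.0195% (vancomycin). There were 102 genes lower against other barcodes in the vancomycin library and 1095 genes higher against control members. With 50% globin, the globin share of member UMIs was 90.6% (vancomycin) and 94.3% (control). Globin in barcodes outside the members was 0.0273% (vancomycin). The share of members with proliferation RNA was 7.18% (vancomycin). There were 157 genes higher against control members and 43 genes lower against control members. The log2 ratio over other barcodes turned sign for S100a8 -2.92. With 70% globin, an alternative chosen after seeing the data, the member share of barcodes was 3.42% (vancomycin). The globin share of member UMIs was 93.2% (vancomycin) and 95.2% (control). The alpha to beta ratio was 0.0143 (vancomycin). The Hbb-bt share of beta globin was 14.3% (vancomycin) and 12.5% (control). Globin in barcodes outside the members was 0.0310% (vancomycin) and 0.0124% (control). The share of members with proliferation RNA was 4.82% (vancomycin). There were 91 genes higher against control members and 26 genes lower against control members. The log2 ratio over other barcodes turned sign for S100a8 -2.92. Without the Alas2 condition, the member share of barcodes was 4.54% (vancomycin). The globin share of member UMIs was 82.6% (vancomycin). The Hbb-bt share of beta globin was 14.0% (vancomycin) and 12.1% (control). With at least 3 Alas2 UMIs, the member share of barcodes was 3.20% (vancomycin) and 1.62% (control). The globin share of member UMIs was 82.3% (vancomycin) and 92.6% (control). The alpha to beta ratio was 0.323 (control). The Hbb-bt share of beta globin was 15.1% (vancomycin) and 13% (control). Globin in barcodes outside the members was 0.0458% (vancomycin) and 0.0142% (control). With at least 1000 UMIs, the Hbb-bt share of beta globin was 14.6% (vancomycin). Globin in barcodes outside the members was 0.0235% (vancomycin) and 0.0106% (control). With at least 200 genes, which leaves 121 vancomycin and 3 control members, the member share of barcodes was 0.769% (vancomycin) and 0.0730% (control). The globin share of member UMIs was 59.8% (vancomycin) and 41.9% (control). The alpha to beta ratio was 0.0153 (vancomycin) and 0.241 (control). The Hbb-bt share of beta globin was 17.7% (vancomycin) and 3.0% (control). The share of members with proliferation RNA was 43.0% (vancomycin) and 66.7% (control). There were 181 genes lower against other barcodes in the vancomycin library, 52 genes higher in the 90% band and 32 genes lower in the 90% band. The log2 ratio of vancomycin over control members turned sign for Alas2 1.82, Fech 2.63, Slc25a37 4.94, Epb41 1.34, Slc4a1 3.11, Mkrn1 4.10, Ube2l6 0.46 and Lars2 0.39. As medians over members, the globin share of member UMIs was 93.7% (vancomycin) and 95.6% (control). The alpha to beta ratio was 0.0141 (vancomycin) and 0.315 (control). The Hbb-bt share of beta globin was 11.3% (vancomycin) and 10.7% (control). Thinned to 500 UMIs, globin in barcodes outside the members was 0.0452% (vancomycin) and 0.0327% (control). Thinned to 100 UMIs outside adult globins, the share of members with proliferation RNA was 0.516% (vancomycin). At 1 UMI in place of 2, the share of members with proliferation RNA was 22.9% (vancomycin) and 18.7% (control). As CPM of all UMIs, there were 46 genes higher and 7548 lower against other barcodes in the vancomycin library. That comparison took in more genes than the 1836 of the text, because a gene's expected UMIs rose with the denominator. At this setting 5 genes were lower against control members, and in the 90% band 0 genes were higher and 151 lower. The log2 ratio over other barcodes turned sign for Bsg -0.70, Ubb -1.18, Prdx2 -0.20, Cat -0.22, Ftl1 -0.44 and Cmss1 -0.98. The log2 ratio of vancomycin over control members turned sign for Alas2 0.21. With 50 added to the levels, there were 172 genes lower against other barcodes in the vancomycin library. With barcodes weighted equally, there were 1283 genes lower against other barcodes in the vancomycin library. At a minimum of 20 UMIs per gene, there were 496 genes lower against other barcodes in the vancomycin library, 1725 genes higher against control members, 296 genes lower against control members and 153 genes lower in the 90% band. With the median log2 ratio set to 0, there were 177 genes lower against other barcodes in the vancomycin library and 287 genes lower against control members. Without members that held other cell types' markers, there were 88 genes higher against other barcodes in the vancomycin library, 147 genes lower against other barcodes in the vancomycin library, 39 genes higher against control members, 14 genes lower against control members, 51 genes higher in the 90% band and 15 genes lower in the 90% band. The log2 ratio over other barcodes turned sign for S100a8 -2.92. The log2 ratio of vancomycin over control members turned sign for Alas2 0.00187.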

Other observations

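The globin-rich barcodes without Alas2 (113 in the vancomycin and 10 in the control library) held Fech at 878 CPM in the vancomycin library and 2249.7 in the control library, against 7103 and 13603 in high-globin members of the same libraries. Bpgm stood at 647 and 0 there, and Mkrn1 at 739.5 and 1125. These barcodes held a median of 120 UMIs outside adult globins in the vancomycin and 69 in the control library. The values of the 10 control barcodes thus rest on very few UMIs, and the 0 for Bpgm sets no useful limit.

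The ratios of gene pairs differed between high-globin members and other barcodes of 1 library. The antibody genes Jchain and Igkc stood at 9.16 (7.04 to 12.1) in high-globin vancomycin members and 2.56 in other barcodes. The ferritin genes Fth1 and Ftl1 stood at 14.2 in high-globin vancomycin members and 64.2 in other vancomycin barcodes, and at 0.262 and 1.84 in the control library. Both pairs thus stood in another proportion in members than in the rest of the vancomycin library, and where this RNA came from was not tested.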
